A study of Mus musculus with 12 samples.

Results

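The transcripts of 10 integrin chains were followed in mouse CD8 T cells cultured with genipin, with NAC, with both compounds or with vehicle. The chains were taken by gene symbol by a rule that uses no measured value, and they are 10 of the 55450 genes in each table. The list was, however, chosen with earlier results of these data known. They comprise the leukocyte chains Itgal, Itgam, Itgax and Itgb2, and the chains Itga1, Itga2, Itga4, Itgav, Itgb1 and Itgb3, most of which serve in receptors for the matrix. The cells were pmel-1 CD8 T cells, which carry a transgenic receptor for a peptide of the melanocyte protein gp100, and all were wild type for Ucp2. They were stimulated either with the hgp100 peptide or with antibodies to CD3 and CD28, and the labels do not say which was used for a given library. All were expanded for 4 days in medium with 10 ng/ml IL-2, a growth factor of T cells, so that stimulation and IL-2 were shared by every group. Genipin is a plant compound used to block the mitochondrial carrier UCP2, and NAC is the usual short name of the thiol compound N-acetylcysteine. The 4 groups were genipin, genipin with NAC (written genipin+NAC), NAC, and the vehicle of culture medium, with 3 libraries each. Doses are not in the labels used here. Whether libraries of the same group derive from different animals or culture wells is not stated, so p values measure the spread between these libraries, which may be technical.

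Integrins are cell surface receptors made of an alpha and a beta chain, and the pairing decides which ligand is bound. Itgb2 encodes beta2, the chain found on leukocytes, which pairs with alphaL (Itgal) to form LFA-1, the receptor by which T cells hold on to ICAM proteins of other cells, and with alphaM (Itgam) and alphaX (Itgax) in receptors best known from myeloid cells. Itgb1 encodes beta1, which pairs with alpha1 and alpha2 (Itga1, Itga2) to bind collagens, with alpha4 (Itga4) to bind VCAM1 and fibronectin, and with alphaV (Itgav). AlphaV also pairs with beta3 (Itgb3) in a receptor for vitronectin, osteopontin and other proteins with an RGD motif.

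Per the GENCODE M21 annotation on mm10, 3 of the genes lie on chromosome 7. They are Itgal (chr7:127296260-127335138, plus strand), Itgam (chr7:128062640-128118491, plus strand) and Itgax (chr7:128129547-128150657, plus strand), and a gap of 11.1 kb separates Itgam and Itgax. Itga2 (chr13:114833081-114932100, minus strand) and Itga1 (chr13:114953096-115101964, minus strand) are neighbours 21.0 kb apart. The other members are Itgb2 (chr10:77530252-77565708), Itga4 (chr2:79255426-79333123), Itgav (chr2:83724397-83806916), Itgb1 (chr8:128685654-128733200) and Itgb3 (chr11:104608000-104670476), all on the plus strand and all protein coding. Itgam and Itga1 are overlapped on their own strand by the annotated loci Gm49368 and Gm49395, and Itga1 also by Pelo.

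Promoters of 7 of the 10 genes matched in the RefSeq table of GRCm38.p6, those of Itgam, Itgax, Itga1, Itga2, Itga4, Itgav and Itgb1. The 4 promoters of the adjacent pairs are shown because the members of a pair shared a direction in some groups and went apart in others. Each line runs 5′ to 3′ from 250 bases before to 50 bases after the start, and capitals mark matches on either strand to GAGGAA (the PU.1 box), TGTGGT (the RUNX core), GGGCGG (the GC box) or TGANTCA (the AP-1 site). The windows are chr7:128062390-128062689 (plus strand) for Itgam, chr7:128129300-128129599 (plus strand) for Itgax, chr13:115101915-115102214 (minus strand) for Itga1 and chr13:114932051-114932350 (minus strand) for Itga2.
Itgam: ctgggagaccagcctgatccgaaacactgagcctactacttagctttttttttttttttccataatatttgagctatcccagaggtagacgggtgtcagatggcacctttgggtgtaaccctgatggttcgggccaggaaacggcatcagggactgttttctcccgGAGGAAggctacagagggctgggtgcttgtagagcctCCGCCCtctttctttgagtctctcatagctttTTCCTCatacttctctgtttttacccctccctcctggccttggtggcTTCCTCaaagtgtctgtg
Itgax: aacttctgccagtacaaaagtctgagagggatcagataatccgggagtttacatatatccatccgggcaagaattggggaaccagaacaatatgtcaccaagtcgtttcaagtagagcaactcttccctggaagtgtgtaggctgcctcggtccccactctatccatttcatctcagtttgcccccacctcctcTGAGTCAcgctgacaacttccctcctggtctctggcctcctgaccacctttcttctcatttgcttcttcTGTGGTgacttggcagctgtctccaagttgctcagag
Itga1: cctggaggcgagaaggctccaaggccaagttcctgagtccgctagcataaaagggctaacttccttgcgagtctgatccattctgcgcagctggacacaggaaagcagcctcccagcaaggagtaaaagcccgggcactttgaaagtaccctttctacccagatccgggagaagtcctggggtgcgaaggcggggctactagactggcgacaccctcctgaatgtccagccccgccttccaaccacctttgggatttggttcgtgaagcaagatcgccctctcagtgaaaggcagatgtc
Itga2: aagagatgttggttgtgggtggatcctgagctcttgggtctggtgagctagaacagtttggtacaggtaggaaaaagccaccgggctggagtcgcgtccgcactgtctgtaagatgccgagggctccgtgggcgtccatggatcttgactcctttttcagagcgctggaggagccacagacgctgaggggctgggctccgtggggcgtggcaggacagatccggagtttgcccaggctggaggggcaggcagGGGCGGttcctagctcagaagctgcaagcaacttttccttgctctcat
The Itgam window held 3 PU.1 boxes, at -84, -15 and 33 from the start, and a GC box at -47. The Itgax window held neither of these but a RUNX core at 14 and an AP-1 site at -56. Itga2 had a GC box at 3, and Itga1 had no match to these letters or to TATAAA (the TATA box). None of the matches overlapped another. Of the 32817 promoters of the same length in the table, 28.3% held a PU.1 box, 16.8% a RUNX core, 35.6% a GC box, 7.81% an AP-1 site and 13.6% a TATA box. The matches describe these windows only.

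All 10 members passed the filter on low counts that left 13636 genes. Library totals ran between 20838894 and 31098648 expected counts, and the lowest count of any member was 34, for Itga1 in NAC cells. All 12 listed markers of CD8 T cells were tested, and their summed level was 7090 to 7280 CPM (counts scaled to library size) in genipin cells, 7870 to 8210 CPM in genipin+NAC cells, 6450 to 6490 CPM in NAC cells and 6530 to 6690 CPM in vehicle cells. Single markers did not all follow that sum. Cd8a was at 390 to 397 CPM in genipin, 664 to 680 in genipin+NAC, 807 to 836 in NAC and 464 to 477 in vehicle cells. In the test described below, NAC raised 3 of the 12 and lowered 6 against vehicle, beside 29.6% and 30% of all genes. Genipin raised 7 and lowered 4, beside 29.9% and 31%. Replicate 1 of genipin+NAC stood apart, with a chi-square per degree of freedom of 6.95 and 8.07 against its fellow replicates, where the other pairs of replicates gave 2.08 to 2.92. Fold changes below are relative to the median gene, because trimmed mean (TMM) scaling puts the median log2 change of all genes between -0.0079 and 0.0087 in the 5 comparisons of group pairs. On the deposited per-length scale (TPM), that median moved to 0.12 for genipin and 0.18 for NAC against vehicle, and to -0.12 for genipin+NAC against NAC.

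Within a library, the chains kept the same leading order in all 4 groups on the TPM scale, which allows for transcript length. Itgb2 came first with 415 ± 5.71 TPM in genipin cells, 451 ± 10.5 TPM in genipin+NAC cells, 374 ± 10.3 TPM in NAC cells and 453 ± 4.02 TPM in vehicle cells (SD, n = 3 each, also for the levels that follow). Itgal came next, with 248 ± 1.36, 205 ± 6.45, 179.7 ± 4.19 and 194 ± 1.22 TPM in the same order of groups, and after it Itgb1, with 109 ± 0.67, 70.3 ± 3.14, 56.3 ± 1.26 and 54.4 ± 2.53 TPM. The leukocyte pair of LFA-1 was thus the most abundant of these 10 chains. The order then ran Itgav, Itgb3 and Itga4 in every group, without overlap between neighbours. The beta chain Itgb7, not among the 10, was above Itgal in all groups but genipin. It had 224 ± 2.54 TPM in genipin cells, 250 ± 9.44 in genipin+NAC cells, 357 ± 10.6 in NAC cells and 314 ± 10.8 in vehicle cells.

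The 4 low chains changed places. Itgam was the least abundant chain in genipin cells at 1.36 ± 0.129 TPM, but led this lower set in genipin+NAC cells at 10.3 ± 0.656 TPM and in NAC cells at 3.34 ± 0.36 TPM, against 2.07 ± 0.176 TPM in vehicle cells. Itga1 was the least abundant chain of the 10 in the other 3 groups, down to 0.227 ± 0.0321 TPM in NAC cells. Neighbours in the order that overlapped were Itgam and Itgax in genipin+NAC cells and Itga2 and Itgam in vehicle cells. The effective length that the authors' software assigned ranged over the libraries from 5455 to 10099 bases for Itga1 and from 3301 to 4446 bases for Itgam, so the TPM of these chains also depend on the isoforms assigned.

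**Figure D1:**
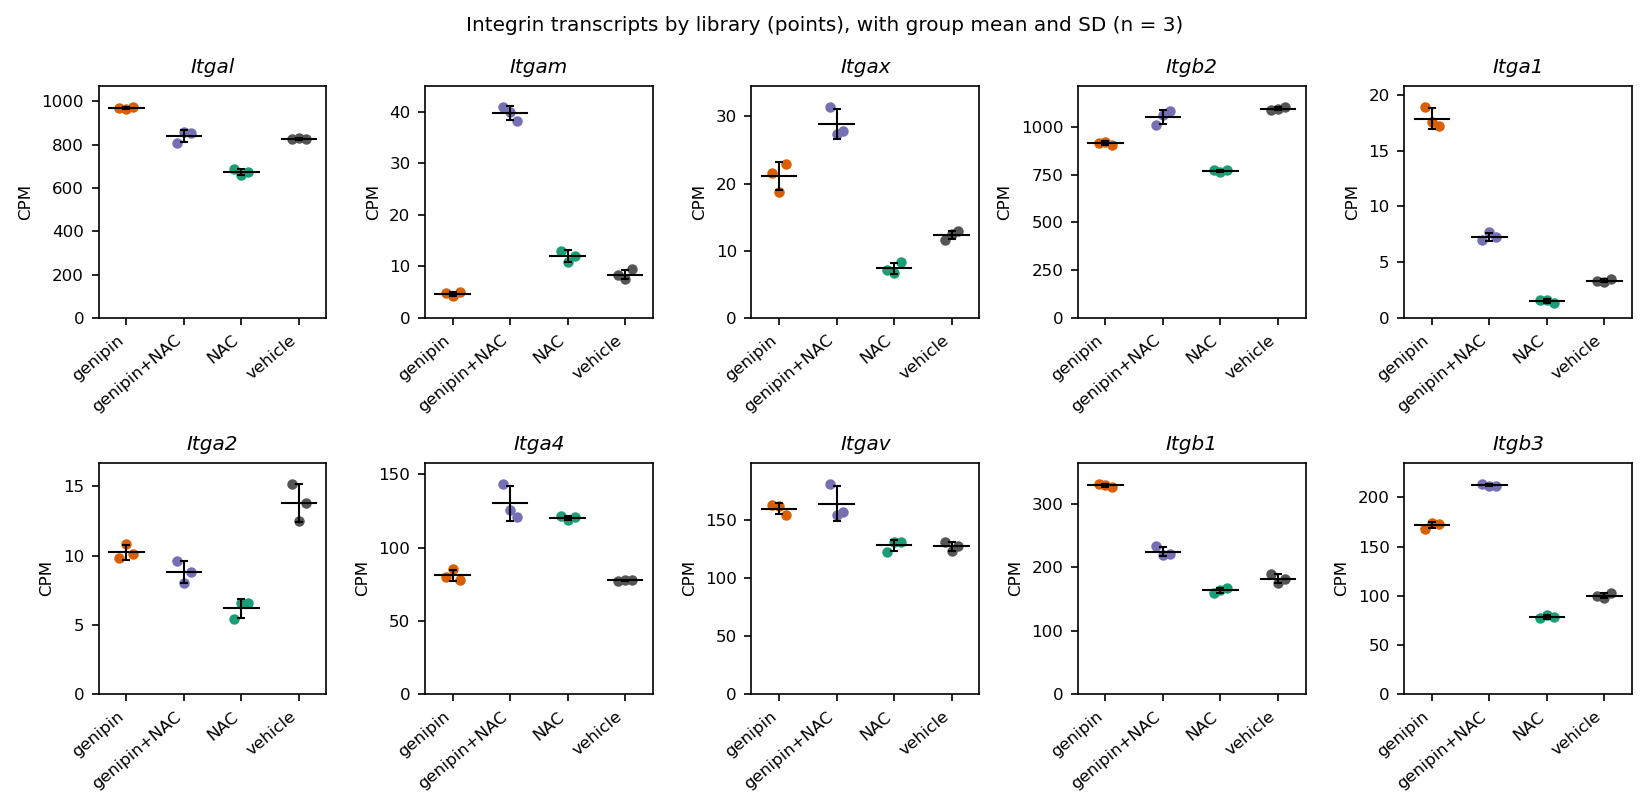
Level of each of the 10 integrin chains in CPM (vertical axis, starting at 0) by group, 1 point per library, with the mean and SD of 3 libraries. Itga1 is highest in the genipin libraries at 17.2 to 18.9 CPM and Itgam in the genipin+NAC libraries at 38.3 to 40.9 CPM, while the Itgal libraries all lie between 659.5 and 973 CPM.

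Genipin raised 6 of the 10 chains and lowered 3 against vehicle, in edgeR's quasi-likelihood test with p values adjusted over all genes. The chains that rose were Itga1, Itgb1, Itgax, Itgb3, Itgav and Itgal, and those that fell were Itgam, Itga2 and Itgb2. Itga4 was not called. The background was high, since 61% of all tested genes were called in this comparison, 29.9% as higher and 31% as lower, so the number of chains called lies above the background but is not by itself a mark of the integrins. The libraries of the groups did not overlap for all 10 chains, beside 66.7% of all genes. The median log2 change was 0.28 over the chains, beside -0.0079 over all genes. On the TPM scale the split was 7 higher and 2 lower, since Itga4 was then called (0.19, adjusted p = 0.0318) and Itga2 was not (-0.19, adjusted p = 0.181). The all-gene split moved likewise, to 4892 higher and 2498 lower from TPM, beside 4080 and 4232 here.

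NAC lowered 7 of the 10 chains against vehicle, namely Itga1, Itga2, Itgax, Itgb2, Itgb3, Itgal and Itgb1, and raised Itga4 and Itgam, while Itgav was not called. Here 59.7% of all genes were called, 29.6% as higher and 30% as lower, and the median log2 change was -0.32 over the chains beside -0.0053 over all genes. The groups did not overlap for 9 of the chains, beside 65.9% of all genes. On the TPM scale 3 chains were higher and 6 lower, because Itgav was called (0.36, adjusted p = 0.000398) and Itgb1 was not (0.05, adjusted p = 0.405), and the all-gene split was 5685 higher and 1644 lower in place of 4041 and 4093. Without normalization factors the chains again split into 3 higher and 6 lower, and all genes into 5615 and 2700.

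With both compounds, 7 chains were higher than in vehicle cells, Itga2 alone was lower, and Itgal and Itgb2 were not called, where 57.4% of all genes were called, 28.5% as higher and 28.9% as lower. The median log2 change was 0.55 over the chains beside 0.0048 over all genes, and the groups did not overlap for 9 of the chains, beside 60.8% of all genes. Of all genes TPM called 3738 as higher and 2509 as lower in place of 3891 and 3935. These comparisons share the vehicle libraries.

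**Figure D2:**
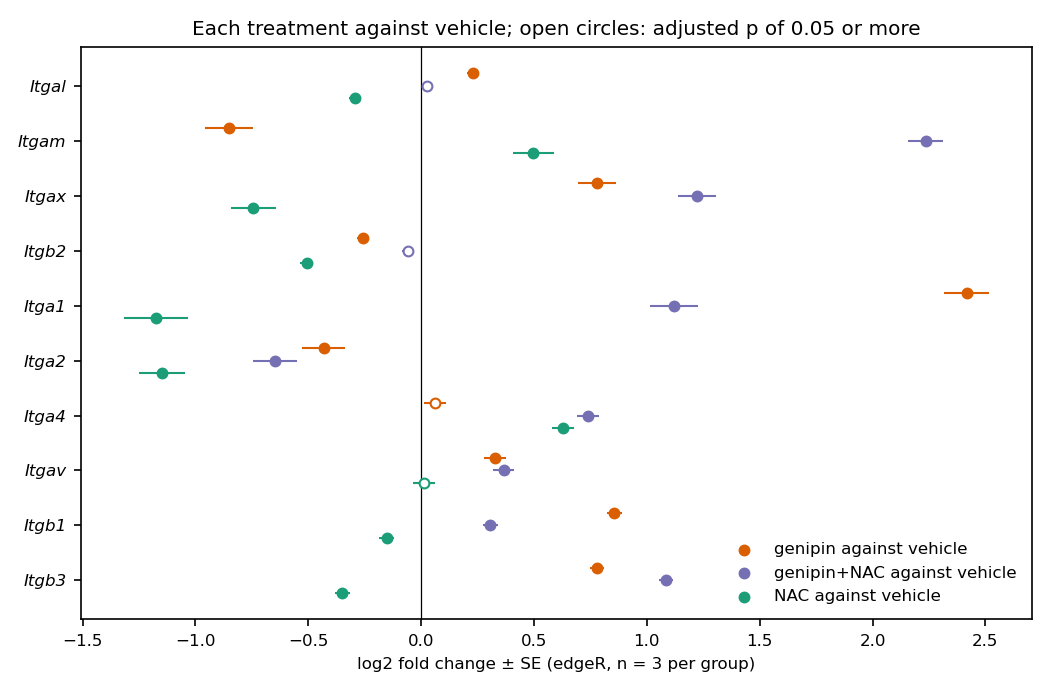
Log2 fold change (horizontal axis, with the standard error, SE) of each chain against vehicle under genipin, genipin+NAC and NAC, 3 libraries a group. Itga1 reaches 2.42 under genipin and Itgam 2.24 under genipin+NAC, and most NAC points lie left of 0; the Itgb1 point of NAC, at -0.15, moves to 0.05 on the TPM scale.

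The beta2 chain itself was lowered by each compound alone. Itgb2 stood at 917, 922 and 905 CPM in genipin cells, at 1009, 1061 and 1084 CPM in genipin+NAC cells, at 771, 765 and 774 CPM in NAC cells, and at 1089, 1092 and 1103 CPM in vehicle cells. No group overlapped another, although genipin+NAC came within a few CPM of vehicle. Itgb2 fell by 0.26 ± 0.0272 (log2, SE; adjusted p = 4.36e-08) under genipin and by 0.51 ± 0.0273 (adjusted p = 1.17e-12) under NAC. With both compounds the difference from vehicle was -0.06 (95% interval -0.11 to -0.0011, adjusted p = 0.0759). It was called by DESeq2 (adjusted p = 0.0401), by limma-voom (adjusted p = 0.0499) and by edgeR without genipin+NAC replicate 3 (-0.08, adjusted p = 0.0226). Itgb2 was higher in genipin+NAC cells than in genipin cells (0.20 ± 0.0272, adjusted p = 1.14e-06) and than in NAC cells (0.45 ± 0.0273, adjusted p = 9.86e-12).

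Itgal, the alpha chain of LFA-1, went up with genipin where its partner went down. Its level was 967, 965 and 973 CPM in genipin cells, 807, 860.0 and 853 CPM in genipin+NAC cells, 688, 659.5 and 674.5 CPM in NAC cells, and 823.5, 829.9 and 823.7 CPM in vehicle cells. The genipin libraries were all highest and the NAC libraries all lowest, and those of genipin+NAC lay on either side of vehicle. Itgal rose by 0.23 ± 0.0277 under genipin (adjusted p = 3.16e-07) and fell by 0.29 ± 0.0278 under NAC (adjusted p = 1.03e-08). Between genipin+NAC and vehicle the difference was 0.03 (95% interval -0.03 to 0.08, adjusted p = 0.458).

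Itgam showed the widest range among the chains of the beta2 family. It was at 4.8, 4.24 and 4.92 CPM in genipin cells, at 40.9, 40 and 38.3 CPM in genipin+NAC cells, at 13.1, 10.8 and 12.01 CPM in NAC cells, and at 8.24, 7.55 and 9.39 CPM in vehicle cells. The 4 groups did not overlap, with genipin at the bottom and genipin+NAC at the top. Itgam fell by 0.85 ± 0.105 under genipin (adjusted p = 4.4e-07), rose by 0.50 ± 0.0899 under NAC (adjusted p = 6.61e-05), and rose by 2.24 ± 0.0791 with both compounds (4.71-fold, adjusted p = 1.35e-15), a change exceeded in size by 1.33% of all genes. Against genipin alone, genipin+NAC was 8.49-fold higher (3.09 ± 0.0871, adjusted p = 8.29e-18). Gm49368, the locus that overlaps Itgam, held 0 to 4.69 counts per library, and adding its counts left the change with both compounds at 2.24.

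Itgax, the gene next to Itgam, rose with genipin whether or not NAC was present. Its libraries held 21.6, 18.8 and 22.97 CPM in genipin cells, 31.4, 27.4 and 27.8 CPM in genipin+NAC cells, 7.17, 6.61 and 8.3 CPM in NAC cells, and 11.7, 12.5 and 12.9 CPM in vehicle cells. Again no groups overlapped, but the order differed from that of Itgam, with NAC lowest. Itgax rose by 0.78 ± 0.0859 under genipin (adjusted p = 8.81e-08) and by 1.22 ± 0.0834 with both (adjusted p = 5.84e-11), and fell by 0.74 ± 0.0998 under NAC (adjusted p = 1.57e-06). The neighbours thus moved in opposite directions under each single compound and in the same direction under the pair. Whether the motif matches printed above bear on these directions was not tested.

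Itgam and Itgax together made up 8.68 ± 0.632% of the TPM of the 3 beta2 alpha chains in genipin+NAC cells, against 3.19 ± 0.186% in genipin cells, 3.13 ± 0.182% in NAC cells and 2.96 ± 0.121% in vehicle cells. The rest was Itgal. Both chains are also transcribed by myeloid cells, so markers of those were measured. Of 12 listed markers of macrophages and monocytes only Cd14 and Cd68 passed the filter, and the defining genes Csf1r and Adgre1 had at most 1 and 3 counts in any library. The summed level of the list was 13.9 to 14.4 CPM in genipin cells, 65 to 76.1 CPM in genipin+NAC cells, 52.7 to 56.9 CPM in NAC cells and 34 to 39.2 CPM in vehicle cells, which is the same order of groups as for Itgam. Nearly all of it was Cd68, a lysosomal protein gene, at 62.5 to 74 CPM in genipin+NAC cells and 32 to 37.9 CPM in vehicle cells. Cd14 had the other order under the single compounds, higher under genipin (0.97 ± 0.194, adjusted p = 0.000198) and lower under NAC (-1.47 ± 0.253, adjusted p = 3.83e-05), which are the directions of Itgax and the reverse of those of Itgam. Of 11 dendritic cell markers 6 were tested, and the list summed to 23.4 to 28.3 CPM in genipin cells, 78.5 to 94.2 CPM in genipin+NAC cells, 107 to 112 CPM in NAC cells and 102 to 108 CPM in vehicle cells. Batf3 alone was at 67.5 to 74.1 CPM in vehicle cells. H2-Ab1 had the same order of groups as Itgam. It was at 4.72 to 5.69 CPM in genipin, 26.7 to 27.4 in vehicle, 47.2 to 48.9 in NAC and 54 to 63.7 in genipin+NAC cells. Batf3, Flt3, Zbtb46, H2-Aa and Cd74 did not have that order. Neutrophil markers summed to at most 1.01 CPM in any library. The part of other cells in the Itgam and Itgax levels was not tested, and in bulk RNA fewer cells of a type and less RNA per cell cannot be told apart.

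Among the beta1 chains, Itgb1 rose with genipin, and NAC reduced that rise. Itgb1 was at 331.5, 329 and 326.5 CPM in genipin cells, at 233, 219 and 221.5 CPM in genipin+NAC cells, at 159, 164 and 166.5 CPM in NAC cells, and at 189, 175 and 181.5 CPM in vehicle cells. The genipin libraries lay apart from all others, and the NAC libraries just below vehicle. Itgb1 rose by 0.86 ± 0.033 under genipin (1.81-fold, adjusted p = 3.63e-15) and by 0.31 ± 0.0333 with both compounds (adjusted p = 8.85e-08), and genipin+NAC was below genipin by -0.55 ± 0.0326 (adjusted p = 2.42e-12). The NAC difference of -0.15 ± 0.0338 (adjusted p = 0.000535) was small and turned to 0.05 on the TPM scale (adjusted p = 0.405) and to -0.03 without normalization factors (adjusted p = 0.424). Relative to the shift of all genes on the TPM scale it was -0.13.

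Itga1, the collagen-binding alpha1 chain, had the largest genipin response of the 10. It was at 18.9, 17.5 and 17.2 CPM in genipin cells, at 6.96, 7.68 and 7.21 CPM in genipin+NAC cells, at 1.58, 1.59 and 1.29 CPM in NAC cells, and at 3.34, 3.23 and 3.45 CPM in vehicle cells. The groups were separate throughout. Itga1 rose 5.34-fold under genipin (2.42 ± 0.0982, adjusted p = 8.56e-15), a change exceeded in size by 1.88% of all genes, and 2.17-fold with both (1.12 ± 0.107, adjusted p = 1.25e-08), and it fell by 1.175 ± 0.141 under NAC (adjusted p = 3.36e-07). The same-strand locus Gm49395 held 2 to 40.9 counts per library, and with its counts added the genipin change was 2.40. Pelo, inside the Itga1 span, held 223 to 441 counts. It lies on the same strand, so strand cannot keep reads of the 2 genes apart. Whether they were kept apart by exon is not given in the sources used here.

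Itga2, the alpha2 collagen receptor chain next to Itga1, went down in every treated group. Its libraries held 9.82, 10.8 and 10.1 CPM in genipin cells, 9.6, 8.02 and 8.86 CPM in genipin+NAC cells, 5.43, 6.57 and 6.62 CPM in NAC cells, and 15.2, 12.5 and 13.8 CPM in vehicle cells. All treated libraries lay below all vehicle libraries. Itga2 fell by 0.43 ± 0.0948 under genipin (adjusted p = 0.00049), by 0.65 ± 0.0964 with both (adjusted p = 6.7e-06) and by 1.15 ± 0.102 under NAC (adjusted p = 3.45e-09). The genipin call was not kept on the TPM scale, at -0.19 (adjusted p = 0.181), or -0.31 relative to the shift of all genes. So the collagen receptor neighbours fell together under NAC and parted under genipin.

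Itga4, whose product pairs with beta1 or beta7 to bind VCAM1, was raised wherever NAC was present. It stood at 80.2, 85.3 and 78.2 CPM in genipin cells, at 144, 126 and 121 CPM in genipin+NAC cells, at 121, 119 and 121 CPM in NAC cells, and at 77.4, 78.0 and 78.0 CPM in vehicle cells. The 6 libraries with NAC lay above the 6 without it. The summed levels of the B cell and CD4 T cell marker lists were also higher where NAC was present, though not every marker was. The 8 B cell markers, 3 of them tested, summed to 60.8 to 65.3 CPM in genipin cells, 160 CPM in genipin+NAC cells, 192 to 205 CPM in NAC cells and 42.5 to 43.9 CPM in vehicle cells. Most of that sum was Ighm, at 182 to 193 CPM in NAC cells and 38.4 to 40 CPM in vehicle cells, while the B cell receptor gene Cd79a had at most 8 counts in any library. Ebf1, also tested, fell under NAC (-1.03 ± 0.283, adjusted p = 0.00366). The 4 CD4 T cell markers, 2 of them tested, summed to 38.6 to 42.2 CPM in genipin cells, 52.1 to 61.9 CPM in genipin+NAC cells, 65.2 to 69.8 CPM in NAC cells and 39.9 to 43.5 CPM in vehicle cells. Most of that sum was Zbtb7b, at 59.6 to 64.3 CPM in NAC cells and 37.6 to 41.9 CPM in vehicle cells. Cd40lg, not tested, had 1 to 7 counts in genipin+NAC libraries and 6 to 19 in vehicle libraries. The part of CD4 T cells in the Itga4 level, like that of B cells, was not tested. Itga4 rose by 0.63 ± 0.0488 under NAC (adjusted p = 4.31e-10) and by 0.74 ± 0.0486 with both compounds (adjusted p = 3.14e-11), and genipin+NAC exceeded genipin by 0.68 ± 0.0484 (adjusted p = 5.42e-11). For genipin alone the difference from vehicle was 0.06 ± 0.0501 (adjusted p = 0.306). Genipin+NAC and NAC overlapped, with a difference of 0.11 ± 0.047 (adjusted p = 0.0519) that was -0.03 on the TPM scale, or 0.09 relative to the shift of all genes.

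Itgav, the alphaV chain, was raised in both groups that received genipin. Its level was 162, 162 and 154 CPM in genipin cells, 181, 154 and 156 CPM in genipin+NAC cells, 122.5, 130.9 and 130.6 CPM in NAC cells, and 131, 123 and 127 CPM in vehicle cells. The 6 libraries with genipin lay above the 6 without, and within each of these sets the groups overlapped. Itgav rose by 0.33 ± 0.0481 under genipin (adjusted p = 4.86e-06) and by 0.36 ± 0.048 with both (adjusted p = 1.27e-06). For NAC against vehicle the difference was 0.01 ± 0.0487 (adjusted p = 0.847), but it was called as higher without normalization factors (0.13, adjusted p = 0.0281), with offsets from effective lengths (0.16, adjusted p = 0.00884) and on the TPM scale, where it was 0.17 relative to the shift of all genes. Genipin+NAC against NAC gave 0.35 ± 0.048 (adjusted p = 2.41e-06) here and 0.05 on the TPM scale (adjusted p = 0.514), or 0.17 relative to that shift.

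Itgb3, the beta3 partner of alphaV, rose more under genipin than Itgav did, as the ratios below show. It was at 168, 174 and 173 CPM in genipin cells, at 214, 212 and 212 CPM in genipin+NAC cells, at 77.0, 80.4 and 78.1 CPM in NAC cells, and at 99.7, 97.8 and 103 CPM in vehicle cells. The groups were far apart in relation to their spread. Itgb3 rose by 0.78 ± 0.0312 under genipin (1.72-fold, adjusted p = 6.8e-15) and by 1.09 ± 0.031 with both compounds (2.12-fold, adjusted p = 3.98e-17), and fell by 0.35 ± 0.0328 under NAC (adjusted p = 8.63e-09). Because Itgb3 is also a chain of platelets, their markers were measured. Pf4, Ppbp and Gp9 had no counts in any library, and the 10 platelet markers summed to 0.425 to 1.03 CPM in genipin cells, 1.76 to 1.85 CPM in genipin+NAC cells, 1.87 to 2.35 CPM in NAC cells and 0.751 to 0.964 CPM in vehicle cells. Most of that sum was Itga2b, itself an integrin chain and the only 1 of the 10 markers tested. It was at 1.73 to 1.8 CPM in genipin+NAC and 1.74 to 2.35 CPM in NAC cells. Itga2b rose under NAC (1.28 ± 0.266, adjusted p = 3e-04 in edgeR), where Itgb3 fell. Under genipin it was not called (-0.25 ± 0.313, adjusted p = 0.504).

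The balance of beta2 against the beta1 and alphaV chains was read from TPM ratios within each library. Genipin effects were pooled over the presence and absence of NAC, and NAC effects over genipin, in two-sided exact permutation tests with 400 relabellings, whose smallest possible p is 0.005, adjusted over 12 tests. The ratio of Itgb2 to Itgb1 was 3.83 ± 0.044 in genipin cells, 6.42 ± 0.424 in genipin+NAC cells, 6.65 ± 0.0892 in NAC cells and 8.33 ± 0.434 in vehicle cells. It was lowest with genipin alone and highest with vehicle, without overlap of either with another group. The pooled genipin effect was -0.59 on the log2 scale (exact permutation, p = 0.03, adjusted p = 0.0514), with -1.12 in the absence and -0.05 in the presence of NAC, and the pooled NAC effect was 0.21 (p = 0.21, adjusted p = 0.252), with -0.32 without and 0.75 with genipin. As a share of the TPM of the 3 beta chains, Itgb1 held 19.4 ± 0.178% in genipin cells, 12.5 ± 0.702% in genipin+NAC cells, 12.6 ± 0.134% in NAC cells and 10.3 ± 0.483% in vehicle cells, and Itgb3 held 6.5 ± 0.12%, 7.6 ± 0.237%, 3.88 ± 0.12% and 3.67 ± 0.0769% in the same order of groups. Itgb7, a beta chain above Itgb1 in TPM in every group, is not in these shares.

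Among the partners, alphaV lost ground to both of its beta chains under genipin. Itgav stood at 0.434 ± 0.018 of Itgb1 in genipin cells, 0.668 ± 0.016 in genipin+NAC cells, 0.807 ± 0.018 in NAC cells and 0.653 ± 0.0323 in vehicle cells. Both factors changed this ratio, genipin by -0.43 and NAC by 0.47 (log2, adjusted p = 0.01 for each by exact permutation). The effective length assigned to Itgav was 3303 to 3550 bases in NAC libraries and 3679 to 4050 bases in vehicle libraries. Ratios with Itgav thus also depend on the isoforms assigned. Relative to Itgb3 it stood at 1.29 ± 0.083 in genipin cells, 1.1 ± 0.0446 in genipin+NAC cells, 2.61 ± 0.0605 in NAC cells and 1.84 ± 0.12 in vehicle cells, so that genipin lowered it by -0.88 (adjusted p = 0.01, exact permutation) with the same sign in both strata. The NAC effect on that ratio had opposite signs in its strata, 0.51 without and -0.24 with genipin, and a mean of 0.14 (exact permutation, adjusted p = 0.338). Itga4 relative to Itgb1 was changed by both factors too, by 1.01 for NAC and -0.58 for genipin (adjusted p = 0.01 for each, exact permutation), with 0.0939 ± 0.00386 in genipin cells, 0.221 ± 0.0121 in genipin+NAC cells, 0.282 ± 0.00526 in NAC cells and 0.164 ± 0.00583 in vehicle cells.

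Itgal per Itgb2, the balance of the LFA-1 chains, was 0.596 ± 0.0113 in genipin cells, 0.454 ± 0.00678 in genipin+NAC cells, 0.48 ± 0.0138 in NAC cells and 0.429 ± 0.00616 in vehicle cells. Genipin cells stood clear of the rest, yet neither pooled effect was called. Each pooled mean joins differences of opposite sign, so it cannot decide whether a single stratum changed, and strata were not tested singly. The genipin difference was 0.47 without NAC and -0.08 with it (mean 0.20, exact permutation, adjusted p = 0.15) and the NAC difference was 0.16 without and -0.39 with genipin (mean -0.12, adjusted p = 0.22). Itgal relative to Itgav was lowered by NAC by -0.37 (adjusted p = 0.01, exact permutation), while for genipin the mean was 0.04 (adjusted p = 0.455). The values of that ratio were 5.27 ± 0.235 in genipin cells, 4.37 ± 0.362 in genipin+NAC cells, 3.95 ± 0.0902 in NAC cells and 5.48 ± 0.233 in vehicle cells.

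**Figure D3:**
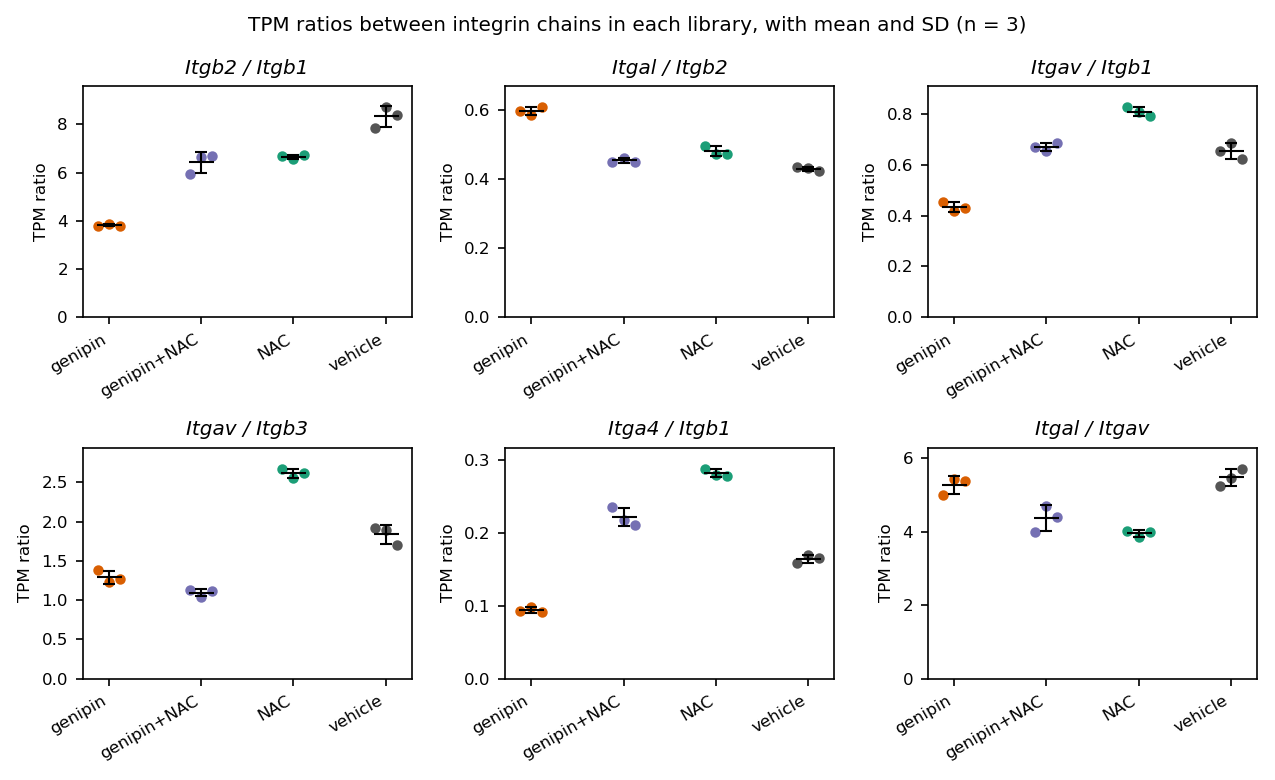
TPM of a chain divided by TPM of another in each library (points), with mean and SD of 3 libraries, by group; each vertical axis is a plain ratio starting at 0. The Itgb2 to Itgb1 ratio is 3.83 in genipin cells and 8.33 in vehicle cells, and the Itgav to Itgb3 ratio is lower in the 6 genipin-treated libraries than in the 6 others.

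Whether NAC altered the response to genipin was asked for each chain with an interaction term, which subtracts the effect of genipin in the absence of NAC from its effect in the presence of NAC. Of the 10 chains, 5 had a positive interaction, Itgb1 a negative one, and 4 were not called, where 51.4% of all genes were called, 27.4% as positive and 24% as negative. The median over the chains was 0.37, beside 0.03 over all genes, a median that scaling moved to -0.23 with TPM and to -0.11 without factors. The all-gene split was 3733 positive and 3275 negative here, 1541 and 5133 with TPM and 2618 and 4806 without factors, and the chains then split into 5 and 3 with TPM, where Itgal (adjusted p = 0.0257) and Itgav (adjusted p = 0.00346) were called as negative beside Itgb1, on a scale whose median over all genes is itself negative.

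Itgam turned round, with a genipin effect of 1.74 ± 0.0754 in the presence of NAC and -0.85 ± 0.105 in its absence, which gives an interaction of 2.59 ± 0.129 (adjusted p = 3.1e-13). Itgb2 and Itga2 likewise fell under genipin alone and rose when genipin was added to NAC, with interactions of 0.71 ± 0.0386 (adjusted p = 1.41e-12) and 0.93 ± 0.143 (adjusted p = 1.15e-05). Itgax rose in both settings, by 1.97 ± 0.0904 with NAC and 0.78 ± 0.0859 without it, an interaction of 1.19 ± 0.127 (adjusted p = 7.73e-08). For Itgb3 the genipin effect was 1.44 ± 0.0317 with NAC and 0.78 ± 0.0312 without it (interaction 0.66 ± 0.0444, adjusted p = 5.54e-11). Itgb1 was the exception, with 0.46 ± 0.0335 in the presence of NAC and 0.86 ± 0.033 in its absence (interaction -0.40 ± 0.0469, adjusted p = 3.33e-07).

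Itga1 rose to a like degree in both settings, by 2.30 ± 0.125 with NAC and 2.42 ± 0.0982 without it, and its interaction was -0.12 ± 0.173 (adjusted p = 0.608), with an effective-length offset turning it to 0.18. The interactions of Itgal (0.09 ± 0.0392, adjusted p = 0.0667), Itga4 (0.05 ± 0.0687, adjusted p = 0.568) and Itgav (0.03 ± 0.0679, adjusted p = 0.784) were -0.16, -0.22 and -0.36 on the TPM scale, which relative to the shift of all genes there is 0.07, 0.01 and -0.13, so that Itgav alone changed sign beyond that shift. Set directly against NAC, genipin+NAC raised 9 of 10 chains and lowered none, where 53.1% of all genes were called, 26.6% as higher and 26.5% as lower, and the groups did not overlap for 9 chains, beside 56.7% of all genes. The all-gene split was 3632 higher and 3607 lower here, 1651 and 4491 with TPM and 2650 and 4733 without factors, and 8 chains were still higher with TPM. Set against genipin, genipin+NAC raised 5 chains (Itgam, Itga4, Itgax, Itgb3 and Itgb2) and lowered 3 (Itga1, Itgb1 and Itgal), where 69.3% of all genes were called, 35% as higher and 34.3% as lower, and the groups did not overlap for 9 chains, beside 70.3% of all genes. Itga1 was 0.407 times its genipin level there (-1.30 ± 0.0877, adjusted p = 2.32e-11).

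**Figure D4:**
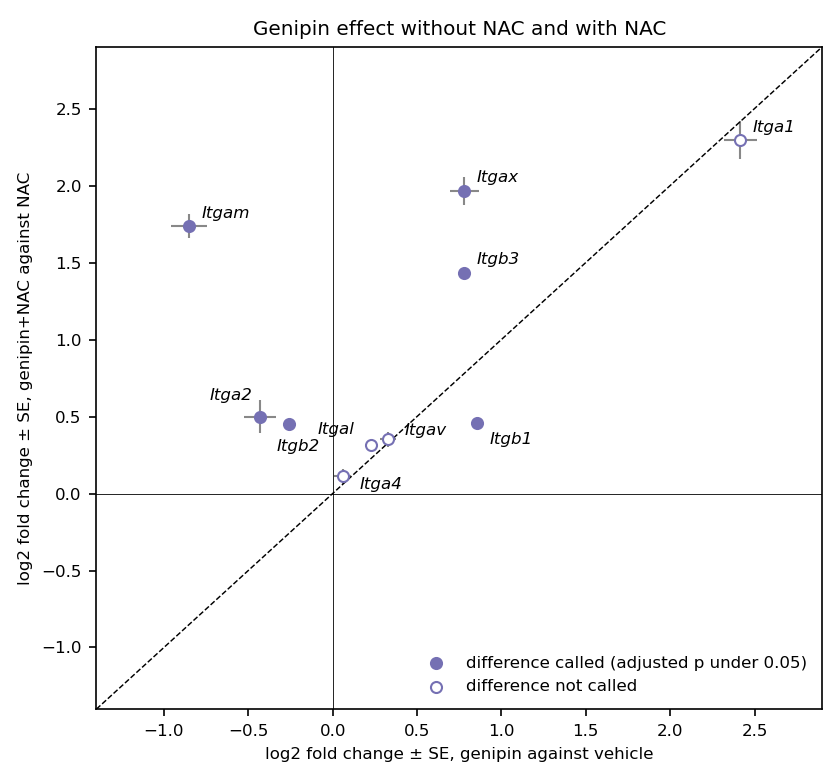
Log2 fold change under genipin in the presence of NAC (vertical axis, genipin+NAC against NAC) and in its absence (horizontal axis, genipin against vehicle), with SE; filled points have an interaction called at adjusted p under 0.05 and the dashed line marks equal effects. Itgam, Itgb2 and Itga2 lie left of 0 and above it, and Itgb1 is the filled point below the dashed line; of the points close to the line, Itgav falls below it on the TPM scale after allowing for the shift of all genes (-0.13).

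The rest of the integrin system was described from 5 lists, given as counts beside the all-gene shares above. Of the 16 other integrin chains 11 were tested. Genipin raised 1 of these and lowered 4 (median -0.24), and NAC raised 5 and lowered 2 (median 0.54). Itgae, the alphaE chain that binds E-cadherin, was raised by both compounds alone, to 11.99 ± 1.71 CPM in genipin cells and 9.74 ± 0.298 CPM in NAC cells, against 0.778 ± 0.0963 CPM in vehicle cells, and was 2.19 ± 0.229 CPM in genipin+NAC cells. Its partner Itgb7, which also pairs with Itga4, fell by 0.60 ± 0.0374 under genipin (adjusted p = 1e-11) and was at 449 ± 16.5 CPM in NAC cells and 451 ± 7.64 CPM in vehicle cells. Itga3, a laminin receptor chain, fell under genipin (-1.03 ± 0.0811, adjusted p = 5.18e-10) and under NAC (-1.01 ± 0.0812, adjusted p = 7.93e-10). Itga7, also a laminin receptor chain, fell under genipin to 0 to 5 counts a library, against 40 to 60 counts in vehicle libraries. The fibronectin receptor chain Itga5 (1.298 ± 0.155, adjusted p = 3.06e-07) and the laminin receptor chain Itga6 (0.79 ± 0.0693, adjusted p = 2.73e-09) rose under NAC.

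Of 24 ligands 13 were tested, and genipin raised 2 and lowered 5 while NAC raised 1 and lowered 4. Icam2, a ligand of LFA-1, rose by 0.68 ± 0.0813 under genipin (adjusted p = 2.99e-07) and fell by 1.41 ± 0.0978 under NAC (adjusted p = 7.17e-11). Spp1, which encodes osteopontin, a ligand of alphaV and alpha4 receptors, was at 579 ± 23.7 CPM in genipin cells, 951 ± 32.3 CPM in genipin+NAC cells, 262 ± 3.33 CPM in NAC cells and 703 ± 26.4 CPM in vehicle cells. It fell under genipin (-0.28 ± 0.034, adjusted p = 3.84e-07) and under NAC (-1.42 ± 0.0352, adjusted p = 1.9e-18). The laminin chain gene Lama5 went the other way from Icam2, with -1.29 ± 0.0702 under genipin (adjusted p = 1.09e-12) and 1.07 ± 0.0594 under NAC (adjusted p = 1.9e-12). The laminin chain gene Lamc1 fell under genipin (-0.37 ± 0.0374, adjusted p = 2.65e-08), and Icam1 fell under NAC (-0.40 ± 0.0415, adjusted p = 3.75e-08).

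Of 25 genes of integrin activation 24 were tested, and genipin raised 9 and lowered 8, with 11 and 3 on the TPM scale. Tln1, the talin that couples beta chains to actin, rose by 0.54 ± 0.0312 (adjusted p = 3.44e-12) and the actin crosslinker Flna by 0.49 ± 0.0269 (adjusted p = 1.4e-12), whereas Cytip, an inhibitor of the beta2 regulator cytohesin, fell by 0.76 ± 0.027 (adjusted p = 1.05e-15). The adaptor gene Fyb fell by 0.45 ± 0.032 (adjusted p = 9.1e-11). NAC raised 8 and lowered 13 of the list, a split that turned to 11 and 4 on the TPM scale and 11 and 8 without factors. Under NAC, Flna fell by 0.72 ± 0.0273 (adjusted p = 3.23e-15), and the Ras and Rap exchange factors Rasgrp1 (0.56 ± 0.0307, adjusted p = 1.38e-12) and Rasgrp2 (0.56 ± 0.0412, adjusted p = 1.73e-10) and the kinase Prkd2 (0.91 ± 0.053, adjusted p = 4.36e-12) rose.

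Of 24 genes of the adhesion complex 22 were tested, and genipin raised 11 and lowered 4 (median 0.18), with 12 and 1 on the TPM scale. The FAK family kinase Ptk2b (0.56 ± 0.0304, adjusted p = 9.97e-13), the scaffold Nedd9 (0.52 ± 0.0295, adjusted p = 2.35e-12), the LIM protein Zyx (0.63 ± 0.041, adjusted p = 2.17e-11) and the alpha-actinin Actn4 (0.45 ± 0.0343, adjusted p = 3.5e-10) were among those that rose. NAC raised 6 and lowered 10 (median -0.11), a split that turned to 10 and 3 on the TPM scale and to 9 and 7 without factors. Under NAC, Zyx (-0.69 ± 0.0429, adjusted p = 1.2e-11), the paxillin gene Pxn (-0.50 ± 0.0372, adjusted p = 2.33e-10) and the actin regulator Vasp (-0.46 ± 0.0355, adjusted p = 4.61e-10) fell, and Actn1 rose by 1.32 ± 0.0825 (adjusted p = 1.32e-11). Zyx and Flna thus had opposite signs under the single compounds, as Itgal, Itgax, Itga1, Itgb1, Itgb3 and, the other way round, Itgam did, with the Itgb1 sign under NAC lost on the TPM scale.

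Of 18 genes of integrin recycling 15 were tested, and genipin raised 2 and lowered 6, with 6 and 4 on the TPM scale and 5 and 6 without factors. Acap1, an ARF regulator that acts in beta1 recycling, fell by 0.43 ± 0.0294 (adjusted p = 5.33e-11), and Rab11b, a GTPase of recycling endosomes, rose by 0.48 ± 0.0415 (adjusted p = 2.24e-09). NAC raised 5 and lowered 5, with 9 and 2 on both other scales. Rab27a, a GTPase of granule transport, fell under genipin (-0.35 ± 0.0311, adjusted p = 4.09e-09) and under NAC (-0.76 ± 0.0318, adjusted p = 1.73e-14). Arf6 fell under NAC (-0.47 ± 0.0414, adjusted p = 3.24e-09), while Hax1 was -0.37 ± 0.0476 under genipin (adjusted p = 7.96e-07) and 0.25 ± 0.0459 under NAC (adjusted p = 8.02e-05).

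**Figure D5:**
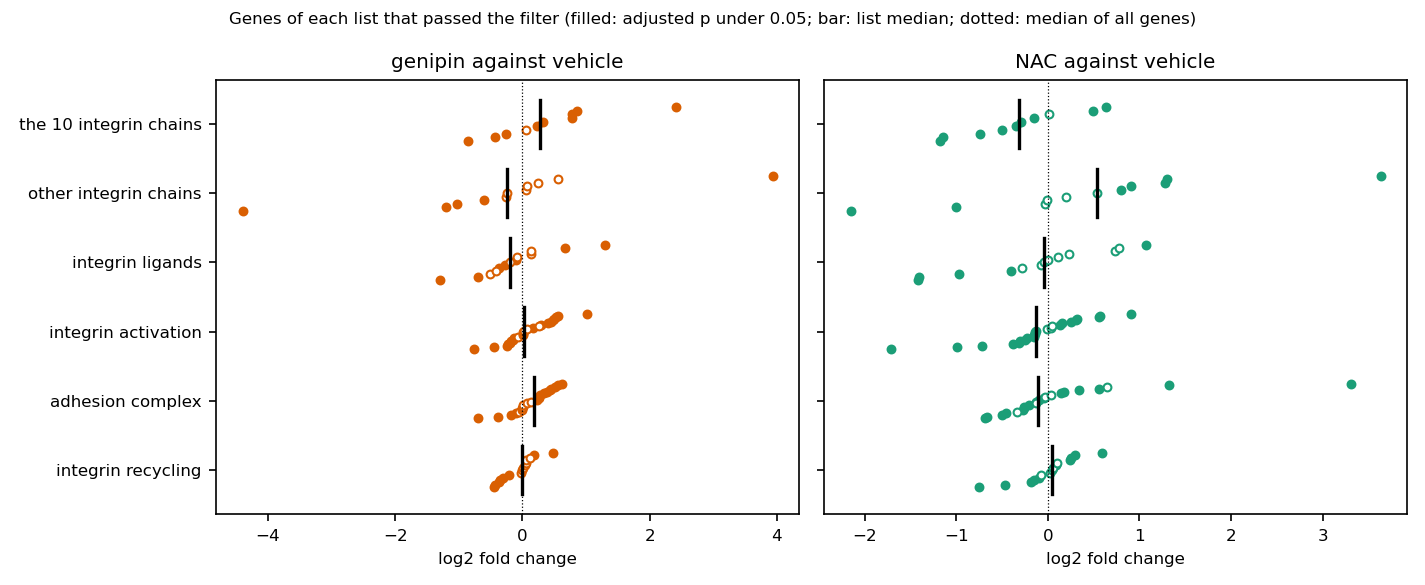
Log2 fold change (horizontal axis) of each tested gene of the 10 chains and of the 5 other lists, for genipin against vehicle and NAC against vehicle; filled points are called, bars are list medians and the dotted line is the median of all genes. The bar of the 10 chains lies at 0.28 for genipin and at -0.32 for NAC; the NAC splits of the activation and adhesion complex lists change sides on the TPM scale.

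The genes whose profile over the 12 libraries was most like that of a chain were found by Pearson correlation of log2 CPM among 9476 genes, as a description of libraries that fall into 4 groups. For Itgb2 they were Adam8 (r = 0.990), Gem (0.986) and Gna15 (0.976), and for Itgal they were Il2rb (0.996), C1qtnf6 (0.991) and Cd52 (0.990). Il2rb, the IL-2 receptor beta chain gene, had 781 ± 6.68 TPM in genipin cells, 509 ± 18.2 TPM in genipin+NAC cells, 310 ± 4.93 TPM in NAC cells and 452 ± 3.71 TPM in vehicle cells, the same order as Itgal in CPM. For Itgb1 the nearest genes were B4galt1 (0.989), Stk24 (0.989) and Ankrd44 (0.988), and for Itgav they were mt-Co1 (0.991), Wdr26 (0.985) and Zbtb43 (0.975). The mitochondrial gene mt-Co1 had 9849 ± 173 CPM in genipin cells, 9922 ± 396 CPM in genipin+NAC cells, 9022 ± 158 CPM in NAC cells and 8986 ± 173 CPM in vehicle cells. On the TPM scale, which the correlation did not use, NAC cells stood above vehicle cells, at 8444 ± 199 against 7319 ± 170 TPM. NK cell markers, 6 of 7 tested, summed to 145 CPM in genipin cells, 102 to 110 CPM in genipin+NAC cells, 49.5 to 49.7 CPM in NAC cells and 75.9 to 82.7 CPM in vehicle cells, which is also the order of the group means of Itgal, Itga1 and Itgb1. Most of that sum was Eomes. Genipin raised 5 of the 6 tested and lowered none (median 1.39), beside 29.9% of all genes called higher. Ncr1 had 36 to 64 counts in genipin libraries and 1 to 2 in vehicle libraries. Fcgr3 was at 12.4 to 14.3 CPM in genipin cells and 3.93 to 4.9 CPM in vehicle cells. NAC lowered 5 and raised none, beside 30% of all genes called lower. The part of other cells in the Itgal, Itga1 and Itgb1 levels was not tested.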

How the data were processed

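RNA of 12 libraries in 4 groups of 3 was sequenced as stranded total RNA, per the labels' protocols. The submitters' processing notes name bcl2fastq, cutadapt 1.18, STAR 2.7.0f, RSEM 1.3.1 and mm10, without the role of each. The authors deposited a gene table per library, which per the file headers holds expected counts, TPM, FPKM and effective lengths; FPKM were not used. The strand setting of the counting is not given in the sources used here. Groups came from the labels.

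Deposited expected counts were rounded and tested with edgeR 4.0.16 (R 4.3.3): filterByExpr, TMM scaling, 1 mean per group over all 12 libraries, the quasi-likelihood F test with 8 residual degrees of freedom, Benjamini-Hochberg adjustment over 13636 genes and a call at 0.05. SE is the log2 change divided by the square root of F. CPM use the TMM-scaled totals. Deposited TPM served for levels between chains and for ratios, which were tested by exact permutation and adjusted over 12 tests. Library totals of 20838894 to 31098648 set the precision: 3 counts are 0.098 to 0.138 CPM. The scripts were tested on simulated data.

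The members, gene lists and tests were chosen with earlier results of these data known. From each list, up to 4 called genes with the smallest p in each single-compound comparison are named; all members are named, as are the 3 genes most like each of 4 chains among those with a mean of at least 5 CPM (offset 0.1 CPM). Alternatives were DESeq2 1.42.0, limma 3.58.1 (voom), other scalings and filters, a stricter threshold, a replicate block and each library left out. A limma fit to log2(TPM + 0.1) and the counts of overlapping loci were added after seeing the data. Replicate numbers did not pair the libraries: over 18 same-numbered pairs, deviations correlated between -0.133 and 0.111.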

Additional observations from a re-analysis of the deposited data

Results flagged for a closer look

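For 6 of the 10 chains the genipin effect differed with and without NAC by the interaction test, in edgeR with adjustment over all genes. As 51.4% of all genes were called, this count is not by itself a mark of the integrins. The difference (effect with NAC minus effect without it, log2) was 2.59 for Itgam, 1.19 for Itgax, 0.93 for Itga2, 0.71 for Itgb2, 0.66 for Itgb3 and -0.40 for Itgb1. The groups did not overlap in either genipin comparison for these 6 chains, beside 66.7% of all genes without NAC and 56.7% with it. That also held for Itgal, Itga1 and Itgav, whose interactions were not called, so it does not bear on the interaction. For Itgam, Itgb2 and Itga2 the effects had opposite signs.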

How the results depend on the processing

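Over all alternatives for single chains, 1337 of 1382 recomputed values kept their direction and side of the threshold, 22 gained a call, 3 lost one and 20 changed sign, of which only that of Itgb1 under NAC had been called. On the TPM scale, chosen after seeing the data, Itgb1 under NAC was 0.049, Itgav in genipin+NAC against genipin -0.0024, Itga4 in genipin+NAC against NAC -0.031, and the interactions of Itgal, Itga4 and Itgav -0.16, -0.22 and -0.36. Relative to the all-gene median on that scale (-0.23 for the interaction), the same 6 values were -0.13, 0.05, 0.09, 0.07, 0.01 and -0.13, so that the Itgav interaction alone of these changed sign beyond the shift. Without normalization factors the interactions were -0.056, -0.093 and -0.12, and with effective-length offsets that of Itgav was -0.10 and that of Itga1 0.18. The Itgav difference under NAC was -0.00079 with no filter, and with single libraries left out it ran between -0.0097 and 0.043. Without genipin+NAC replicate 1, the library that stood apart, Itgav in genipin+NAC against genipin was -0.039 (range with any library left out -0.039 to 0.078) and the interactions of Itga4 and Itgav were -0.026 and -0.053 (ranges -0.026 to 0.10 and -0.053 to 0.064), while the Itgal interaction was called (0.11, adjusted p = 0.00245). The cause of these changes was not tested. The number of chains called stayed between 6 and 7 for the interaction, 8 and 9 for genipin+NAC against vehicle and against genipin, 9 and 10 for genipin+NAC against NAC, and at 9 for each single compound when any library was left out. The pooled genipin effect on Itgb2/Itgb1 ran between -0.61 and -0.56 with a library left out, and was called without genipin+NAC replicate 2 (-0.60, adjusted p = 0.0257) or 3 (-0.60, adjusted p = 0.0171, exact permutation); that on Itgal/Itgav was -0.066 with CPM in place of TPM. Replicate numbers paired no libraries (3 of 12 correlated best with their own number). A replicate block gave the Itgb2/Itgb1 effect as -0.59 with adjusted p = 0.0343 (exact permutation) and called Itga4 in genipin+NAC against NAC (0.11, adjusted p = 0.0488), and it changed no other call among the chains and ratios. Depth limits chiefly Itga1, with 34 to 42 counts in NAC libraries.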
